A study of Mus musculus with 30 samples.

Results

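A set of 10 mouse genes of the ubiquitin and nuclear export machinery of red cell maturation, *Ube2h*, *Ube2o*, *Maea*, *Rmnd5a*, *Ranbp9*, *Wdr26*, *Gid8*, *Trim58*, *Fbxo7* and *Xpo7*, was followed through the differentiation of murine erythroleukemia (MEL) cells. They are 10 of the 54532 genes in the count table and were taken by symbol, and each passed the filter on low counts in every comparison. The set was chosen with earlier results of these data known, so its shares and medians beside those of all genes are a description. MEL is a mouse leukemia line arrested at an early erythroid stage, which resumes maturation and makes hemoglobin when dimethyl sulfoxide (DMSO) is added to the medium. A total of 6 groups of 5 libraries each were sequenced: WT cells and Abcb10-null cells without treatment (day 0), after 2 days and after 5 days in 1.5% DMSO. Abcb10 is a transporter of the inner mitochondrial membrane, and the comparison of the genotypes asks what its loss does to erythroid maturation. The Abcb10-null cells are a single clone made with a lentiviral CRISPR/Cas9 construct, so a difference between genotypes and a difference of that clone from WT cannot be told apart. The labels call the libraries biological replicates without saying whether they came from separate cultures, and the p-values measure the spread between these libraries.

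As a red cell precursor matures it stops dividing, condenses its nucleus and expels it, and the reticulocyte that remains clears its organelles and most proteins other than hemoglobin. Much of that clearance runs through ubiquitin, which an E1 enzyme activates, an E2 enzyme carries and an E3 ligase attaches to a protein that the proteasome then degrades. Ube2h is the E2 enzyme that works with the CTLH ligase, a ring-shaped E3 complex in which Maea and Rmnd5a form the catalytic pair, Ranbp9 and Gid8 are scaffold subunits, and Wdr26 recruits substrates and joins modules of the complex. Ube2o is a large enzyme with both E2 and E3 activity that marks unassembled proteins and ribosomes in reticulocytes. Trim58 is an E3 ligase of the Trim family that targets cytoplasmic dynein, the microtubule motor, around the time of nuclear expulsion. Fbxo7 is an F-box protein, the substrate-binding part of an SCF ligase, and binds the proteasome regulator PI31. Xpo7 is an exportin, a nuclear transport receptor of the importin beta family that is abundant in erythroid cells.

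The targeted gene was lower in the null clone at each day without overlap between groups. Levels are given as CPM, the count of a gene as a share of its library, on library sizes scaled by TMM over all 30 libraries. *Abcb10* was at 112 to 126 CPM in WT and 67.2 to 79.4 CPM in Abcb10-null at day 0, 475 to 661 and 162 to 312 CPM at day 2, and 1152 to 1264 and 177 to 237 CPM at day 5. Libraries held 9906783 to 20157768 assigned counts. A subset of 5 libraries stood apart from their group, with a median correlation to it of 0.960 to 0.969 against 0.973 to 0.993 in the others. They were WT day 2 replicates 1 and 2, Abcb10-null day 2 replicate 2, and WT day 5 replicates 2 and 5. Where leaving out these libraries changed a call of the 10 genes, the value without them is given. All 11 erythroid markers measured rose from day 0 to day 5 in WT, and their summed level at day 5 was 12613 to 25050 CPM in WT and 6463 to 8214 CPM in Abcb10-null. Of 18 markers of other blood cells, 16 summed to 2.43 to 19.9 CPM in every library. The other 2, *Pf4* and *Itga2b*, were at 234 ± 30.2 and 136 ± 14.8 CPM in WT at day 0. The share of mitochondria-encoded counts was 0.618% to 2.40%. Fewer cells of a stage and less RNA per cell cannot be told apart in these bulk libraries.

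RefSeq promoter windows (GRCm38.p6, 250 bases before to 50 after an annotated start) were found for 7 of the 10 genes, in 11 windows. The upstream stretches of 3 of them, and of *Trim10*, which is not one of the 10, are shown as examples. *Trim58* was far lower in the null clone and so was its relative *Trim10*, while *Rmnd5a* rose in both genotypes but less in the null clone, and the rise of *Ube2h* was not called different. Each is the 250 bases before the start, 5′ to 3′ on the strand of the gene. Capitals mark the letters GATAA, the core bound by GATA factors such as Gata1, and CCNCNCCC, the core bound by Klf factors such as Klf1, on either strand.
Trim58, chr11:58640215-58640464, plus strand: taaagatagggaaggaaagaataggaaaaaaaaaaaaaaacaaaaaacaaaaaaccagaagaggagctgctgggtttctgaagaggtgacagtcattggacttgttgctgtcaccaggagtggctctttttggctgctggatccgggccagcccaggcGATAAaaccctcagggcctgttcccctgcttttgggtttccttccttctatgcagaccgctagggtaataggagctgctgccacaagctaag
Trim10, chr17:36869324-36869573, plus strand: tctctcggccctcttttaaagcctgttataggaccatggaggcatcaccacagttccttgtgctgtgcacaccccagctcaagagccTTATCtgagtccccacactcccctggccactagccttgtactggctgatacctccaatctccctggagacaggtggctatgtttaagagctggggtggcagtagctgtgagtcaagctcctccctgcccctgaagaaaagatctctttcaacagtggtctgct
Rmnd5a, chr6:71440638-71440887, minus strand: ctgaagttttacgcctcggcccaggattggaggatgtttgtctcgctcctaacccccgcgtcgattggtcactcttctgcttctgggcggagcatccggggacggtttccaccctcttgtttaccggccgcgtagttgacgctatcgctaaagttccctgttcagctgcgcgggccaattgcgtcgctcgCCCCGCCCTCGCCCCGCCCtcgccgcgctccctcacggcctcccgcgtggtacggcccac
Ube2h, chr6:30304540-30304789, minus strand: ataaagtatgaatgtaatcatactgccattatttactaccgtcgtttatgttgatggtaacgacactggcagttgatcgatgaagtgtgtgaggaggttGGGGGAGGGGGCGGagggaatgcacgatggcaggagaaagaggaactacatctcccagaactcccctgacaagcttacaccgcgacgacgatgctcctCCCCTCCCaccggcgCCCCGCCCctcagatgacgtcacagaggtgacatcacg
The Trim58 and Trim10 windows held 1 GATAA each and no CCNCNCCC. The Rmnd5a window held 3 overlapping CCNCNCCC matches and the Ube2h window shown held 5, of which the first 3 overlap one another, and neither of these held GATAA. The other *Ube2h* window, chr6:30243754-30244053, is not shown and held 1 GATAA and 1 CCNCNCCC. Also not shown are the windows of *Wdr26* and *Fbxo7*, which were lower in the null clone at day 5. That of *Wdr26* held 4 CCNCNCCC and no GATAA, and those of *Fbxo7* held neither. *Gid8* and *Ranbp9*, also not shown, were not called different between genotypes at day 5. The *Gid8* windows 1, 2 and 3, of which 1 and 2 overlap, held 0, 0 and 2 GATAA and 5, 7 and 1 CCNCNCCC. The *Ranbp9* window held 0 GATAA and 1 CCNCNCCC. Among 32851 RefSeq windows of the same length, 25.4% held GATAA and 49.5% held CCNCNCCC, so either is common, and a match of letters is a description and not a bound site. The E-box letters CANNTG, found in 72.3% of windows, occurred 0 times in the *Trim58* window, 1 time in that of *Trim10*, 2 times in that of *Rmnd5a* and 2 times in each of *Ube2h*. The Ube2h stretch overlaps exons annotated to *1700095J07Rik*, and no annotated exon overlaps the other 3.

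In WT cells 8 of the 10 genes rose over the course of differentiation. Between day 0 and day 2, edgeR's quasi-likelihood test (Benjamini-Hochberg adjusted p under 0.05 over all genes) called 8 of the 10 higher and 2 lower, where 31.5% of all 12839 genes tested were called higher and 30.7% lower. Between day 2 and day 5 it called 6 higher and 0 lower, where 17% of genes were higher and 16.4% lower. Over the whole course, day 5 against day 0, 8 were higher and 1, *Maea*, was lower, where 36.5% of genes were higher and 34.7% lower. The median log2 fold change of the 10 genes over the whole course was 1.38, and that of all genes tested was 0.023. The largest rises were those of *Rmnd5a* (4.39-fold), *Wdr26* (4.01-fold) and *Ube2h* (3.79-fold).

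In the null clone 8 of the 10 genes rose over the whole course, all of those that rose in WT but *Trim58*, and *Xpo7* in addition. From day 0 to day 2 the test called 6 higher and 0 lower (23.1% and 20.1% of all genes tested). From day 2 to day 5 it called 3 higher and 0 lower (14.4% and 16.6%). At day 5 against day 0 these 8 were higher and 0 lower, where 33.9% of genes were higher and 33.3% lower, and the median of the 10 genes was 0.78 against 0.014 for all genes. *Maea* at -0.0063 and *Trim58* at -0.44 on the log2 scale did not pass the test. The comparisons of days within a genotype share their day 0 or day 2 libraries and are not independent of each other.

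**Figure D1:**
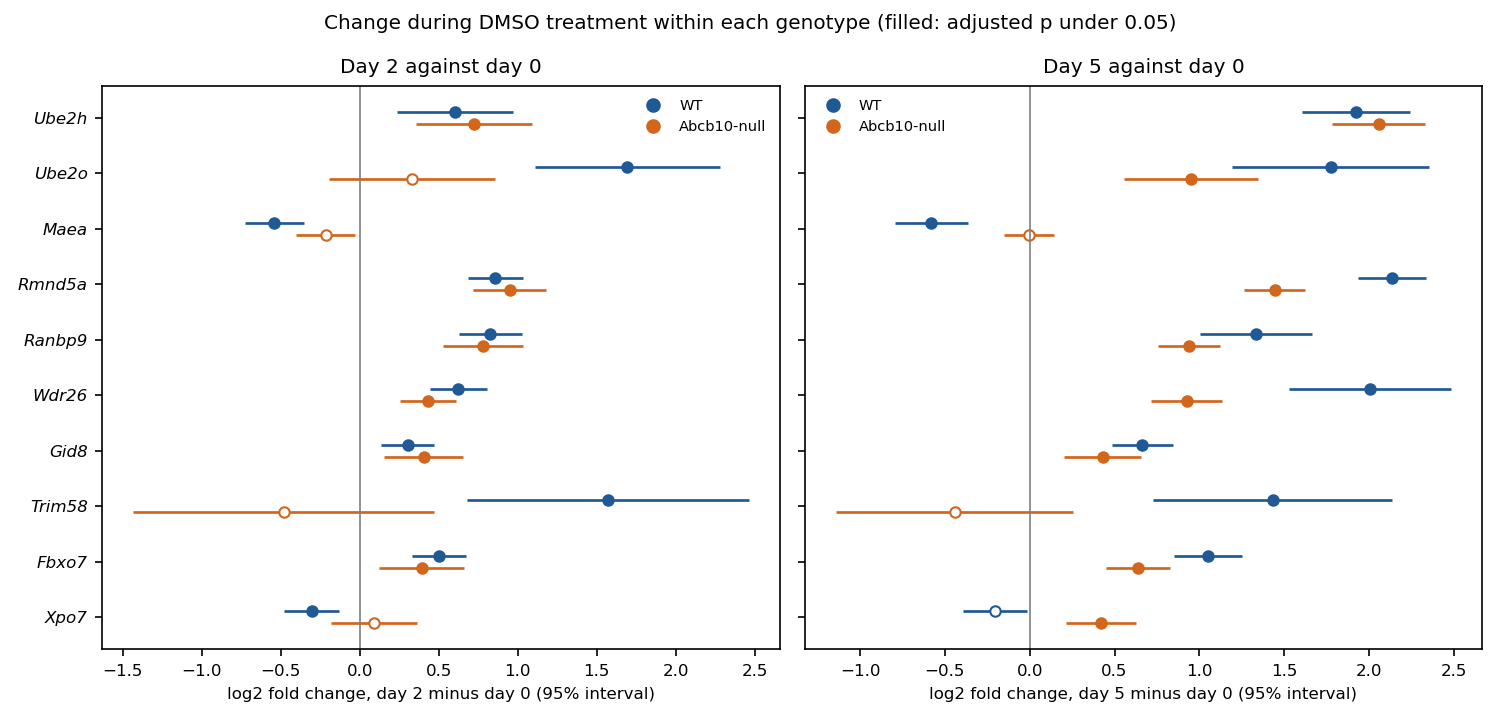
Log2 fold change of each gene at day 2 and at day 5 against day 0, in WT (blue) and Abcb10-null (orange), with the 95% interval, filled where the adjusted p was under 0.05. *Ube2h* lies at nearly the same place in both genotypes, at 1.92 and 2.06 at day 5, while *Trim58* lies at 1.43 in WT and -0.44 in Abcb10-null.

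Between genotypes 2 of the 10 genes were called different before treatment, 4 at day 2 and 7 at day 5. At day 0, *Rmnd5a* and *Gid8* were higher in the null clone and 0 were lower (19.7% and 16.2% of all genes tested). At day 2, 2 were higher, *Rmnd5a* and *Xpo7*, and 2 were lower, *Ube2o* and *Trim58* (14.9% and 16.9%). At day 5, 2 were higher, *Xpo7* and *Maea*, and 5 were lower, *Trim58*, *Ube2o*, *Wdr26*, *Fbxo7* and *Rmnd5a* (19.8% and 17.8%). The change with day itself differed between genotypes in 2 genes from day 0 to day 2, *Ube2o* and *Trim58*, both with a lower change in the null clone. Of all genes, 12% had a higher change in the null clone and 10.8% a lower one. From day 0 to day 5 it differed in 6 genes, 4 lower in the null clone, *Trim58*, *Wdr26*, *Rmnd5a* and *Fbxo7*, and 2 higher, *Xpo7* and *Maea* (16.8% and 14.7%). Beside the 5 of 10 genes that were lower at day 5, all 11 erythroid markers were lower, and the part of the erythroid program as a whole in these differences was not tested.

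**Figure D2:**
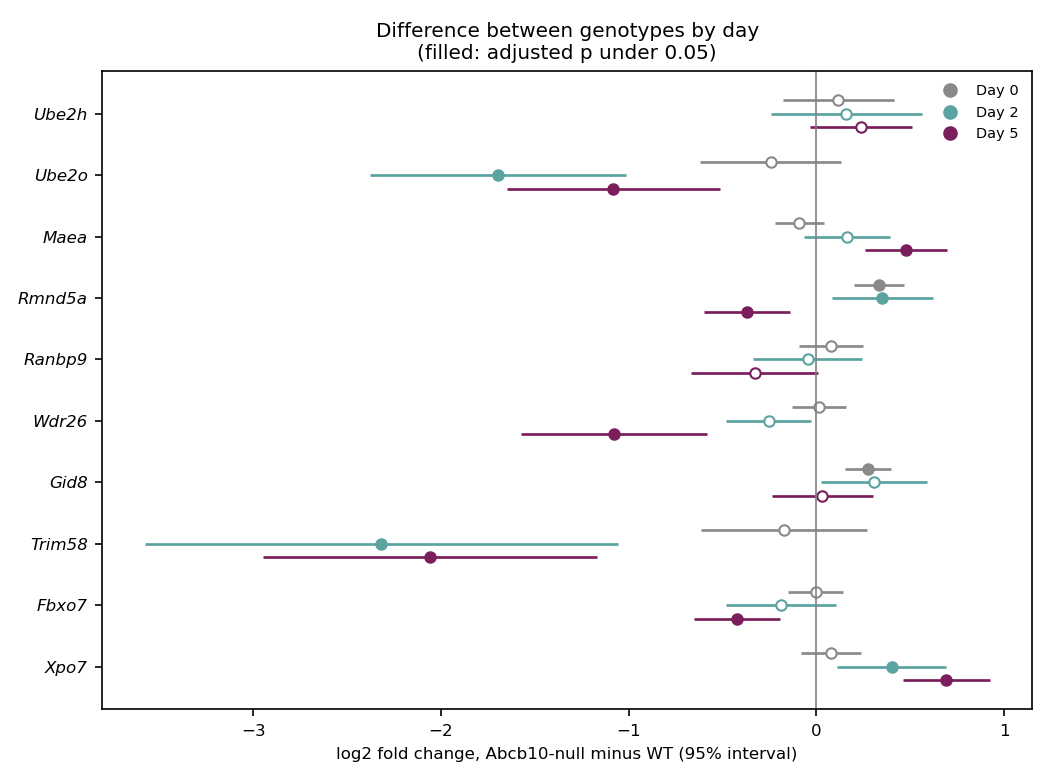
Difference between the genotypes, as Abcb10-null relative to WT on the log2 scale, for each gene at day 0 (grey), day 2 (green) and day 5 (purple), with the 95% interval, filled where the adjusted p was under 0.05. *Trim58* and *Ube2o* lie lowest at days 2 and 5, *Wdr26* joins them at day 5 only, and *Xpo7* lies to the right at days 2 and 5.

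Per kilobase of exon, the order of the levels changed with differentiation. The length is that of all annotated exons of a gene and not of the transcript expressed, 19005 bases for *Xpo7* and 2629 for *Maea*. The order of genes within a group therefore depends in part on the annotation. In WT at day 0 *Maea* was highest at 63.6 CPM per kb, followed by *Gid8* at 30.6 and *Rmnd5a* at 25.6. Then came *Wdr26* at 12.4, *Ranbp9* at 6.30 and *Xpo7* at 6.07, the latter pair within each other's spread. Lowest were *Fbxo7* at 4.93, *Ube2h* at 2.37, *Ube2o* at 1.71 and *Trim58* at 1.05, where *Ube2o* overlapped both of its neighbours. At day 5 *Rmnd5a* led in WT at 112 CPM per kb, and *Wdr26* at 49.7, *Gid8* at 48.6 and *Maea* at 42.6 followed with overlapping libraries. In Abcb10-null at day 5 *Rmnd5a* also led, at 87.7, followed by *Maea* at 59.5 and *Gid8* at 49.9, which overlapped, and by *Wdr26* at 23.8. By group mean *Trim58* was lowest of the 10 in all 6 groups, though in WT at day 2 its libraries overlapped those of *Ube2h*.

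*Ube2h* (ENSMUSG00000039159, chr6:30211289-30304539, minus strand, GRCm38), the E2 enzyme of the CTLH ligase, rose in both genotypes, to levels that were not called different. At day 0 *Ube2h* was at 8.90, 13.8, 9.15, 12.7 and 12.1 CPM in WT in replicates 1 to 5 and at 11.7, 15.3, 12.4, 10.7 and 11.2 CPM in Abcb10-null. At day 2 *Ube2h* was at 14.8, 13.8, 16.7, 18.8 and 21.9 CPM in WT and at 23.5, 14.8, 14.9, 23.5 and 22.8 CPM in Abcb10-null. At day 5 *Ube2h* was at 38.99, 46.3, 38.7, 40.6 and 49.6 CPM in WT and at 61.1, 52.9, 50.6, 49.6 and 39.8 CPM in Abcb10-null. The day 5 libraries lay above every day 0 and day 2 library of the same genotype, and the genotypes overlapped at each day. Most of the rise came after day 2, with a log2 fold change from day 2 to day 5 of 1.32 (SE 0.15, adjusted p = 7.05e-05) in WT and 1.35 (SE 0.17, adjusted p = 0.000106) in Abcb10-null. From day 0 to day 5 the change was 1.92 (SE 0.15, adjusted p = 9.94e-08) in WT and 2.06 (SE 0.13, adjusted p = 1.18e-09) in Abcb10-null. The interval of their difference was -0.26 to 0.54 (adjusted p = 0.628). The genotypes themselves were not called different at day 0, 2 or 5, where the log2 fold change was 0.12, 0.16 and 0.24, with an interval of -0.035 to 0.51 at day 5.

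*Ube2o* (ENSMUSG00000020802, chr11:116537740-116581447, minus strand, GRCm38), the hybrid E2 and E3 enzyme of reticulocytes, rose by day 2 in WT and had risen by day 5 in the null clone. At day 0 *Ube2o* was at 8.56, 11.2, 5.44, 7.69 and 12.3 CPM in WT and at 6.35, 7.72, 7.29, 8.13 and 8.76 CPM in Abcb10-null. At day 2 *Ube2o* was at 42.8, 40.7, 17.7, 22.2 and 23.1 CPM in WT and at 8.78, 15.9, 8.02, 5.35 and 8.81 CPM in Abcb10-null. At day 5 *Ube2o* was at 23.03, 52.9, 23.4, 25.7 and 29.2 CPM in WT and at 22.7, 12.1, 10.7, 14.5 and 13.5 CPM in Abcb10-null. WT replicates 1 and 2 at day 2 and replicate 2 at day 5 were high. The genotypes did not overlap at day 2 or day 5, though at day 5 the highest Abcb10-null library lay just under the lowest WT library. The WT level rose from day 0 to day 2 (log2 fold change 1.70, SE 0.27, adjusted p = 0.000142), and the step to day 5 was 0.078 (SE 0.28, adjusted p = 0.859). In the null clone the first step was 0.33 (SE 0.24, adjusted p = 0.301), and the step from day 2 to day 5 was 0.64 (SE 0.28, adjusted p = 0.0941). Its level there rose over the whole course (log2 fold change 0.95, SE 0.19, adjusted p = 0.000288). Without Abcb10-null day 2 replicate 2, the highest of its group, the step from day 2 to day 5 passed the test at 0.93. Abcb10-null was at 0.309 times the WT level at day 2 (log2 fold change -1.70, SE 0.32, adjusted p = 0.0039). At day 5 it was at 0.472 times that level (log2 fold change -1.08, SE 0.26, adjusted p = 0.00633). The change from day 0 to day 2 differed between genotypes (log2 fold change -1.39, SE 0.38, adjusted p = 0.0131). That from day 0 to day 5 did not pass the test (log2 fold change -0.82, SE 0.34, adjusted p = 0.0713). The latter passed without WT day 0 replicate 5 at -0.97, without WT day 5 replicate 1 at -0.92 and without Abcb10-null day 5 replicate 1 at -1.05. Without WT day 5 replicate 2 it was -0.53, and without all the libraries that stood apart it was -0.46 (adjusted p = 0.25). Without the libraries that stood apart the difference between genotypes was -1.49 at day 2 (adjusted p = 0.000817) and -0.74 at day 5 (adjusted p = 0.0145). *Malat1*, a nuclear RNA, was also high in these WT libraries. It was at 4238 and 3827 CPM in replicates 1 and 2 at day 2 against 2080 to 2405 CPM in the others, and it was at 16625 CPM in replicate 2 at day 5 against 7292 to 11109 CPM. In the null clone *Malat1* was at 1149 to 4309 CPM at day 2. It was highest there in replicate 3, where *Ube2o* was at 8.02 CPM and *Trim58* at 1.10 CPM, and lowest in replicate 2, which had the highest *Ube2o* of its group. Its part in the *Ube2o* values was not tested.

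*Maea* and *Rmnd5a*, the catalytic pair of the CTLH ligase, moved in opposite directions in WT. *Maea* (ENSMUSG00000079562) lies at chr5:33335509-33373296 on the plus strand. At day 0 *Maea* was at 156, 168, 177, 162 and 173 CPM in WT and at 169.7, 157, 143, 163 and 156 CPM in Abcb10-null. At day 2 *Maea* was at 106, 105, 107, 129 and 129 CPM in WT and at 123, 124, 147, 139.9 and 133 CPM in Abcb10-null. At day 5 *Maea* was at 106, 99.1, 102, 113 and 140.2 CPM in WT and at 164, 151, 156, 159 and 152 CPM in Abcb10-null. All 5 WT libraries at day 5 lay below all 5 Abcb10-null libraries and below the WT libraries of day 0, and the null libraries of day 5 overlapped those of day 0. *Maea* fell in WT from day 0 to day 2 (log2 fold change -0.54, SE 0.087, adjusted p = 0.000138) with no call after that, at -0.039 (SE 0.13, adjusted p = 0.844). It was at 0.669 times its day 0 level at day 5 (log2 fold change -0.58, SE 0.099, adjusted p = 0.000154). In Abcb10-null the change over the whole course was -0.0063 with an interval of -0.15 to 0.14 (adjusted p = 0.943). The step to day 2 there was -0.22 (SE 0.088, adjusted p = 0.0619). That from day 2 to day 5 was 0.23 (SE 0.093, adjusted p = 0.0742), and neither was called. *Maea* was 1.39-fold higher in the null clone at day 5 (log2 fold change 0.48, SE 0.10, adjusted p = 0.0028). Its change with day differed between genotypes (log2 fold change 0.58, SE 0.12, adjusted p = 0.000611). With every gene of at least 1 count kept in the test, the difference at day 5 was 0.44 (adjusted p = 0.0771).

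*Rmnd5a* (ENSMUSG00000002222, chr6:71388634-71440637, minus strand) was the most abundant of the 10 genes per kilobase at day 5. At day 0 *Rmnd5a* was at 176, 166, 172, 193 and 161 CPM in WT and at 210.3, 218, 209.9, 216 and 244 CPM in Abcb10-null. At day 2 *Rmnd5a* was at 299, 314, 354, 289 and 318 CPM in WT and at 400.4, 349.9, 520.1, 431 and 380.03 CPM in Abcb10-null. At day 5 *Rmnd5a* was at 769.97, 795, 755, 821 and 672 CPM in WT and at 701, 556, 538, 585 and 594 CPM in Abcb10-null. At day 0 the null libraries all lay above the WT libraries, and at day 5 all but replicate 1 lay below them. The null clone started 1.26-fold higher (log2 fold change 0.33, SE 0.064, adjusted p = 0.000519). It ended at 0.774 times the WT level (log2 fold change -0.37, SE 0.11, adjusted p = 0.0163). Over the whole course *Rmnd5a* rose 4.39-fold in WT (log2 fold change 2.14, SE 0.094, adjusted p = 8.93e-10) and 2.72-fold in Abcb10-null (log2 fold change 1.44, SE 0.084, adjusted p = 5.16e-10). These rises differed between genotypes (log2 fold change -0.69, SE 0.12, adjusted p = 0.000127). Up to day 2 the rises were 0.86 and 0.95, with an interval of their difference of -0.21 to 0.35, and the test of day 2 to day 5 between genotypes was not made. With every gene of at least 1 count kept, the day 5 difference was -0.40 (adjusted p = 0.170). The call at day 2 between genotypes (log2 fold change 0.35, SE 0.12, adjusted p = 0.0455) was lost without any 1 of WT day 2 replicates 1, 2, 4 or 5 or Abcb10-null day 2 replicates 1, 3 or 4, at 0.26 to 0.37. With the libraries that stood apart left out the value was 0.38 (adjusted p = 0.0726).

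*Ranbp9* and *Gid8*, scaffold subunits, rose in both genotypes and were not called different between genotypes at day 5. *Ranbp9* (ENSMUSG00000038546, chr13:43402675-43481282, minus strand) ranged over 29.8 to 35.2, 50.1 to 65.1 and 60.1 to 115 CPM at days 0, 2 and 5 in WT. It ranged over 29.7 to 37.8, 47.2 to 71.9 and 61.1 to 73.8 CPM in Abcb10-null. It rose 2.52-fold in WT (log2 fold change 1.33, SE 0.15, adjusted p = 4.33e-06) and 1.91-fold in Abcb10-null (log2 fold change 0.94, SE 0.086, adjusted p = 8.45e-08). The test of the difference did not pass (log2 fold change -0.39, SE 0.18, adjusted p = 0.102). The difference of the changes was -0.49 and passed without WT day 5 replicate 5, and was -0.22 without WT day 5 replicate 2. At day 5 the difference between genotypes was -0.33 (SE 0.16, adjusted p = 0.113). It passed the test without WT day 5 replicate 5, at -0.44, and without the libraries that stood apart, at -0.27 (adjusted p = 0.0322). The exons of *Ranbp9* share 453 bases with the gene *Nol7* on the other strand. The strand setting of the counting is not given in the sources used here, so some reads of that part could belong to *Nol7*. *Gid8* (ENSMUSG00000027573, chr2:180710117-180718733, plus strand) ranged over 72.996 to 78.7, 86.9 to 105 and 110.1 to 135 CPM in WT and over 89.02 to 94.9, 87.6 to 143 and 96.7 to 148 CPM in Abcb10-null. At day 0 each null library lay above each WT library (log2 fold change 0.28, SE 0.058, adjusted p = 0.00115). At day 5 the groups overlapped (log2 fold change 0.032, SE 0.13, adjusted p = 0.863). In a fit of all 30 libraries the day 0 value was 0.28 (adjusted p = 0.108). At day 2 the value of 0.31 passed the test without Abcb10-null day 2 replicate 2, at 0.40. *Gid8* rose in both genotypes over the whole course, by 0.66 in WT and 0.43 in Abcb10-null on the log2 scale.

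*Wdr26* (ENSMUSG00000038733, chr1:181173228-181212001, minus strand, GRCm38), the substrate-recruiting subunit, showed the widest difference between genotypes at day 5 among the 5 CTLH genes described here. At day 0 *Wdr26* was at 96.9, 92.6, 105, 113 and 107 CPM in WT and at 109, 103, 97.4, 99.7 and 113 CPM in Abcb10-null. At day 2 *Wdr26* was at 166, 176, 153, 139 and 160.5 CPM in WT and at 141, 143, 138, 141 and 127 CPM in Abcb10-null. At day 5 *Wdr26* was at 318, 711, 322, 425 and 285 CPM in WT and at 249, 202, 179, 186 and 171 CPM in Abcb10-null. The genotypes overlapped at days 0 and 2 and did not overlap at day 5, where WT replicate 2, the library with the highest *Malat1*, was far above the other libraries. From day 2 to day 5 *Wdr26* rose 2.59-fold in WT (log2 fold change 1.37, SE 0.22, adjusted p = 0.000516), and it rose 1.43-fold in Abcb10-null (log2 fold change 0.51, SE 0.11, adjusted p = 0.0043). Abcb10-null was at 0.473 times the WT level at day 5 (log2 fold change -1.08, SE 0.23, adjusted p = 0.00282). On the log2 scale the difference was 0.014 (SE 0.069, adjusted p = 0.891) at day 0 and -0.25 (SE 0.11, adjusted p = 0.0798) at day 2. The change from day 0 to day 5 differed between genotypes (log2 fold change -1.07, SE 0.25, adjusted p = 0.00214). Without WT day 5 replicates 2 and 5 and the other libraries that stood apart the difference between genotypes at day 5 was -0.88 (adjusted p = 0.000327).

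*Trim58* (ENSMUSG00000037124, chr11:58640465-58652404, plus strand, GRCm38), the ligase that targets dynein, was induced in WT but not detectably in the null clone. It was the least abundant of the 10, at 5 to 213 counts per library, so single libraries carry much counting error. At day 0 *Trim58* was at 1.93, 2.41, 2.33, 1.96 and 2.93 CPM in WT and at 1.96, 2.21, 1.84, 2.31 and 1.998 CPM in Abcb10-null. At day 2 *Trim58* was at 12.8, 11.4, 2.47, 3.97 and 3.87 CPM in WT and at 0.764, 2.92, 1.10, 0.304 and 2.02 CPM in Abcb10-null. At day 5 *Trim58* was at 3.13, 12.2, 5.47, 5.06 and 5.34 CPM in WT and at 2.34, 0.934, 1.07, 2.28 and 1.003 CPM in Abcb10-null. The same 3 WT libraries that were high in *Ube2o* were high in *Trim58*. The genotypes overlapped at days 0 and 2, and at day 5 each null library lay below each WT library. The *Malat1* values given for *Ube2o* stand beside these as well. *Trim58* rose in WT from day 0 to day 2 (log2 fold change 1.57, SE 0.41, adjusted p = 0.00502). It stood 2.70-fold above day 0 at day 5 (log2 fold change 1.43, SE 0.33, adjusted p = 0.00148). In Abcb10-null the changes were -0.48 (SE 0.44, adjusted p = 0.408) at day 2 and -0.44 (SE 0.33, adjusted p = 0.247) at day 5, and the interval at day 5 was -1.14 to 0.26. The null clone was at 0.201 times the WT level at day 2 (log2 fold change -2.32, SE 0.59, adjusted p = 0.0115). At day 5 it was at 0.240 times that level (log2 fold change -2.06, SE 0.41, adjusted p = 0.00197). The change with day differed between genotypes from day 0 to day 2 (log2 fold change -2.07, SE 0.62, adjusted p = 0.0208). It also differed from day 0 to day 5 (log2 fold change -1.87, SE 0.46, adjusted p = 0.003). Without the libraries that stood apart the WT rise to day 2 was 0.61 (adjusted p = 0.0466) and that to day 5 was 0.97 (adjusted p = 0.00315). The difference between genotypes without them was -1.75 at day 2 (adjusted p = 0.0199) and -1.62 at day 5 (adjusted p = 0.00708).

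*Fbxo7* (ENSMUSG00000001786, chr10:86021972-86051873, plus strand, GRCm38), the F-box protein, rose over the course in both genotypes and ended lower in the null clone. At day 0 *Fbxo7* was at 29.2, 30.3, 32.5, 29.3 and 30.99 CPM in WT and at 29.2, 30.3, 31.2, 29.9 and 32.01 CPM in Abcb10-null. At day 2 *Fbxo7* was at 40.01, 43.4, 43.2, 45.9 and 43.7 CPM in WT and at 36.8, 35.2, 36.8, 34.3 and 53.2 CPM in Abcb10-null. At day 5 *Fbxo7* was at 67.3, 66.03, 53.8, 61.3 and 66.6 CPM in WT and at 51.97, 51.7, 47.3, 42.98 and 42.04 CPM in Abcb10-null. The day 0 libraries of both genotypes lay within a few CPM of each other, replicate 5 was high among the null libraries of day 2, and at day 5 the groups did not overlap. *Fbxo7* rose 2.07-fold in WT (log2 fold change 1.05, SE 0.093, adjusted p = 3.69e-07) and 1.56-fold in Abcb10-null (log2 fold change 0.64, SE 0.088, adjusted p = 8.95e-06). From day 2 to day 5 the step was 0.54 (SE 0.10, adjusted p = 0.00171) in WT and 0.27 (SE 0.14, adjusted p = 0.159) in Abcb10-null. The difference of the changes over the whole course passed the test (log2 fold change -0.40, SE 0.12, adjusted p = 0.0149). At day 5 the null clone was at 0.745 times the WT level (log2 fold change -0.42, SE 0.11, adjusted p = 0.00747). The log2 difference had been -0.0037 at day 0 (interval -0.15 to 0.14) and -0.19 at day 2 (interval -0.48 to 0.11). Without Abcb10-null day 2 replicate 5 the day 2 value passed the test at -0.32, and the rise of the null clone to day 2 was 0.26 in place of 0.39. With every gene of at least 1 count kept, the day 5 difference was -0.45 (adjusted p = 0.0711) and that of the changes -0.39 (adjusted p = 0.310).

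*Xpo7* (ENSMUSG00000022100, chr14:70654246-70766628, minus strand, GRCm38), the exportin, was the only one of the 10 genes that rose in the null clone without a rise in WT. At day 0 *Xpo7* was at 108, 112, 126, 127 and 105 CPM in WT and at 122, 114, 115, 117 and 144 CPM in Abcb10-null. At day 2 *Xpo7* was at 93.5, 103, 93.9, 86.7 and 90.8 CPM in WT and at 154, 95.8, 142, 141 and 108 CPM in Abcb10-null. At day 5 *Xpo7* was at 97.5, 99.96, 104, 90.9 and 109 CPM in WT and at 129.8, 167, 186, 161 and 169.9 CPM in Abcb10-null. At day 5 each null library lay above each WT library, and at day 2 replicates 2 and 5 of the null clone lay close to or within the WT range. *Xpo7* fell in WT from day 0 to day 2 (log2 fold change -0.30, SE 0.080, adjusted p = 0.00506). There day 5 against day 0 did not pass the test (log2 fold change -0.20, SE 0.088, adjusted p = 0.0515). In Abcb10-null it rose from day 0 to day 5 (log2 fold change 0.42, SE 0.098, adjusted p = 0.00127). The change with day differed between genotypes (log2 fold change 0.63, SE 0.13, adjusted p = 0.000984). The null clone was 1.61-fold higher at day 5 (log2 fold change 0.69, SE 0.11, adjusted p = 0.000382) and 1.32-fold higher at day 2 (log2 fold change 0.40, SE 0.13, adjusted p = 0.0376). The latter did not pass when any 1 library was left out among WT day 2 replicates 1, 3, 4 and 5 and Abcb10-null day 2 replicates 1, 3 and 4, at 0.34 to 0.40. The WT change from day 0 to day 5 passed the test without WT day 0 replicate 1 or 5 or WT day 5 replicate 5, at -0.24 to -0.27, as a fall. It also passed without the libraries that stood apart, at -0.24 (adjusted p = 0.0147). In that setting the change from day 0 to day 2 differed between genotypes, at 0.49 (adjusted p = 0.0172) in place of 0.37 (adjusted p = 0.0825).

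**Figure D3:**
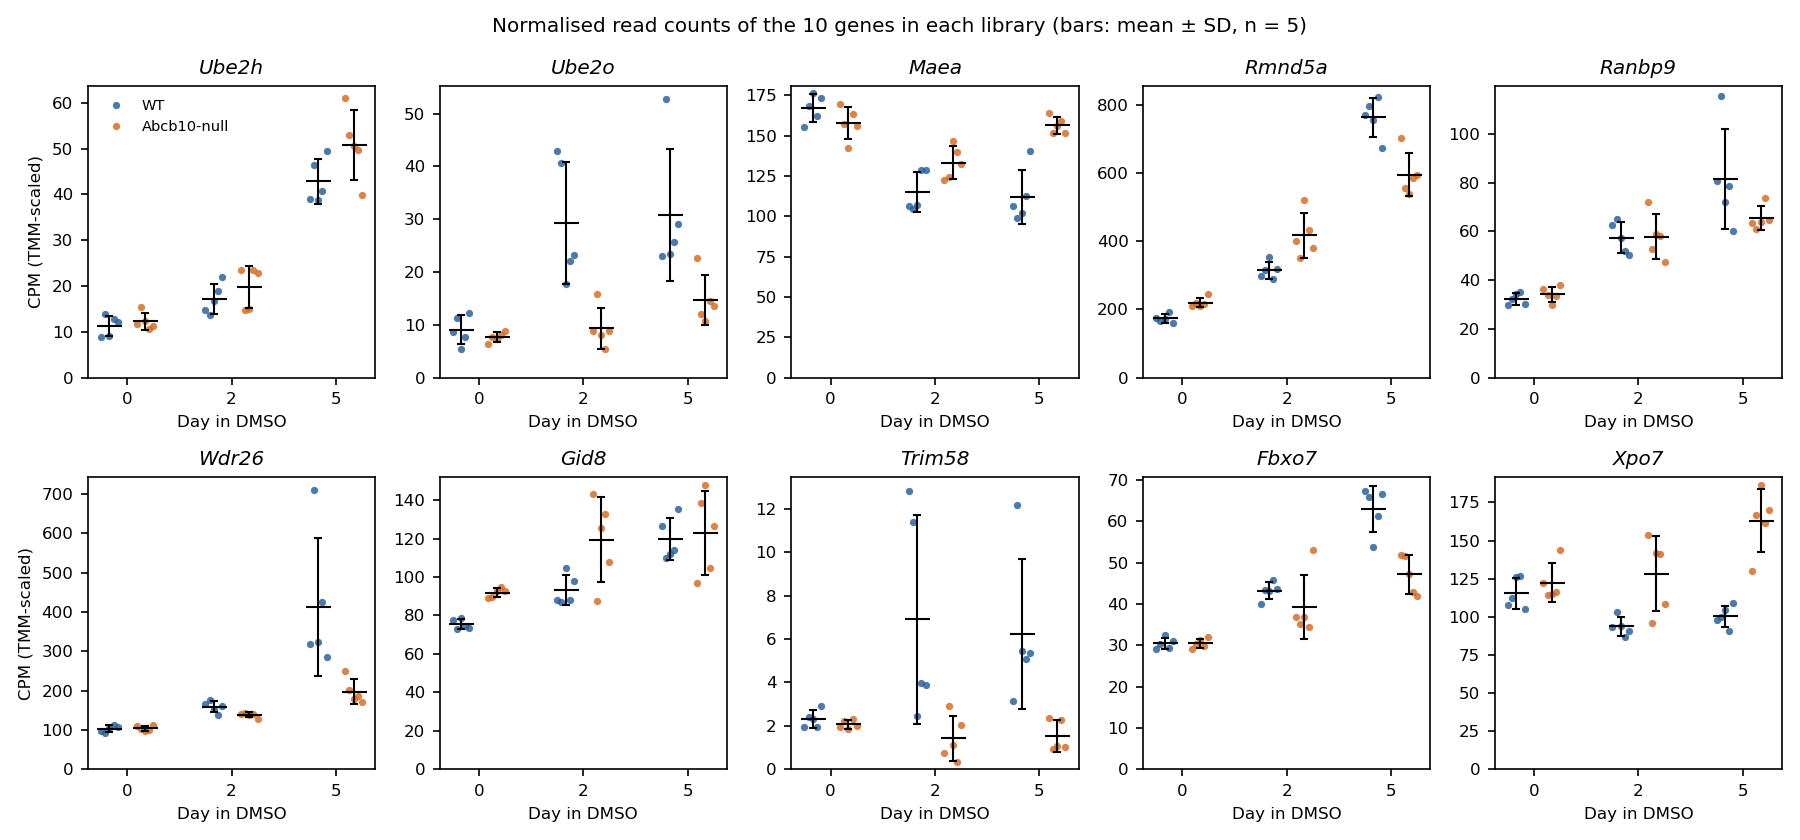
Normalised read count (CPM, linear axis from 0) of each of the 10 genes in every library by day, WT in blue and Abcb10-null in orange, with the mean and SD of 5 libraries in black. At day 5 the null libraries of *Ube2o*, *Wdr26*, *Trim58* and *Fbxo7* all lie below the WT libraries and those of *Maea* and *Xpo7* all lie above. Single high WT libraries widen the SD of *Ube2o*, *Trim58* and *Wdr26*.

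The other genes of the CTLH ligase were listed to see whether its remaining parts moved with the 5 described. *Ranbp10*, the close relative that can take the place of *Ranbp9* in the complex, changed most of the CTLH genes over the WT course. At day 0 *Ranbp10* was at 10.5, 10.001, 11.4, 10.02 and 11.3 CPM in WT and at 8.52, 11.3, 8.24, 10.5 and 8.86 CPM in Abcb10-null. At day 2 *Ranbp10* was at 59.2, 59.8, 30.7, 25.3 and 38.3 CPM in WT and at 9.27, 17.2, 12.998, 8.40 and 13.5 CPM in Abcb10-null. At day 5 *Ranbp10* was at 103, 352, 129, 181 and 110.2 CPM in WT and at 45.8, 28.3, 23.7, 29.1 and 26.5 CPM in Abcb10-null. The genotypes overlapped at day 0 and not at day 2 or day 5, and WT day 5 replicate 2 was again the highest library. *Ranbp10* rose in WT by 4.04 (SE 0.32, adjusted p = 1.45e-07) on the log2 scale and in Abcb10-null by 1.70 (SE 0.17, adjusted p = 2.11e-07). These rises differed (log2 fold change -2.34, SE 0.37, adjusted p = 4.24e-05). Between genotypes the difference was -1.85 (SE 0.28, adjusted p = 0.00178) at day 2 and -2.53 (SE 0.33, adjusted p = 0.00011) at day 5. Per kilobase of exon the mean of *Ranbp10* went from 1.68 to 27.7 CPM per kb in WT, from under to over the mean of *Ranbp9* (6.30 and 15.9). The WT libraries of both genes overlapped on this scale at day 5, and the *Ranbp10* mean there includes replicate 2 at 352 CPM. In Abcb10-null *Ranbp10* reached 4.86 and *Ranbp9* 12.7.

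Of the 6 other CTLH genes tested, 3 were higher, 1 was lower and 2 were not called in WT at day 5 against day 0, with a median log2 fold change of 0.37 against 0.023 for all genes. Beside *Ranbp10* the genes that rose were *Ypel5*, a small zinc-binding subunit (log2 fold change 1.87, SE 0.096, adjusted p = 3.01e-09) and *Mkln1*, which joins modules of the complex (log2 fold change 0.74, SE 0.13, adjusted p = 0.000228). The gene that fell was *Rmnd5b*, the relative of *Rmnd5a* (log2 fold change -0.68, SE 0.15, adjusted p = 0.00105). The substrate receptor *Gid4* was at -0.0040 and the scaffold *Armc8* at 0.0096. Between genotypes at day 5, 2 of the 6 were higher, 1 was lower and 3 were not called, with a median of 0.092 against -0.016 for all genes. *Gid4* was higher in the null clone (log2 fold change 0.58, SE 0.14, adjusted p = 0.00692). It rose in that clone over the course (log2 fold change 0.80, SE 0.089, adjusted p = 7.78e-07), and the changes differed (log2 fold change 0.81, SE 0.17, adjusted p = 0.000682). *Ypel5* was also higher (log2 fold change 0.56, SE 0.095, adjusted p = 0.000675), while *Rmnd5b* at 0.072, *Mkln1* at -0.13 and *Armc8* at 0.11 did not pass the test. *Ypel5* was already higher in the null clone at day 0, at 49.99 to 59.6 CPM against 28.2 to 37.4 CPM in WT, without overlap. Its change from day 0 to day 5 was not called different between genotypes.

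**Figure D4:**
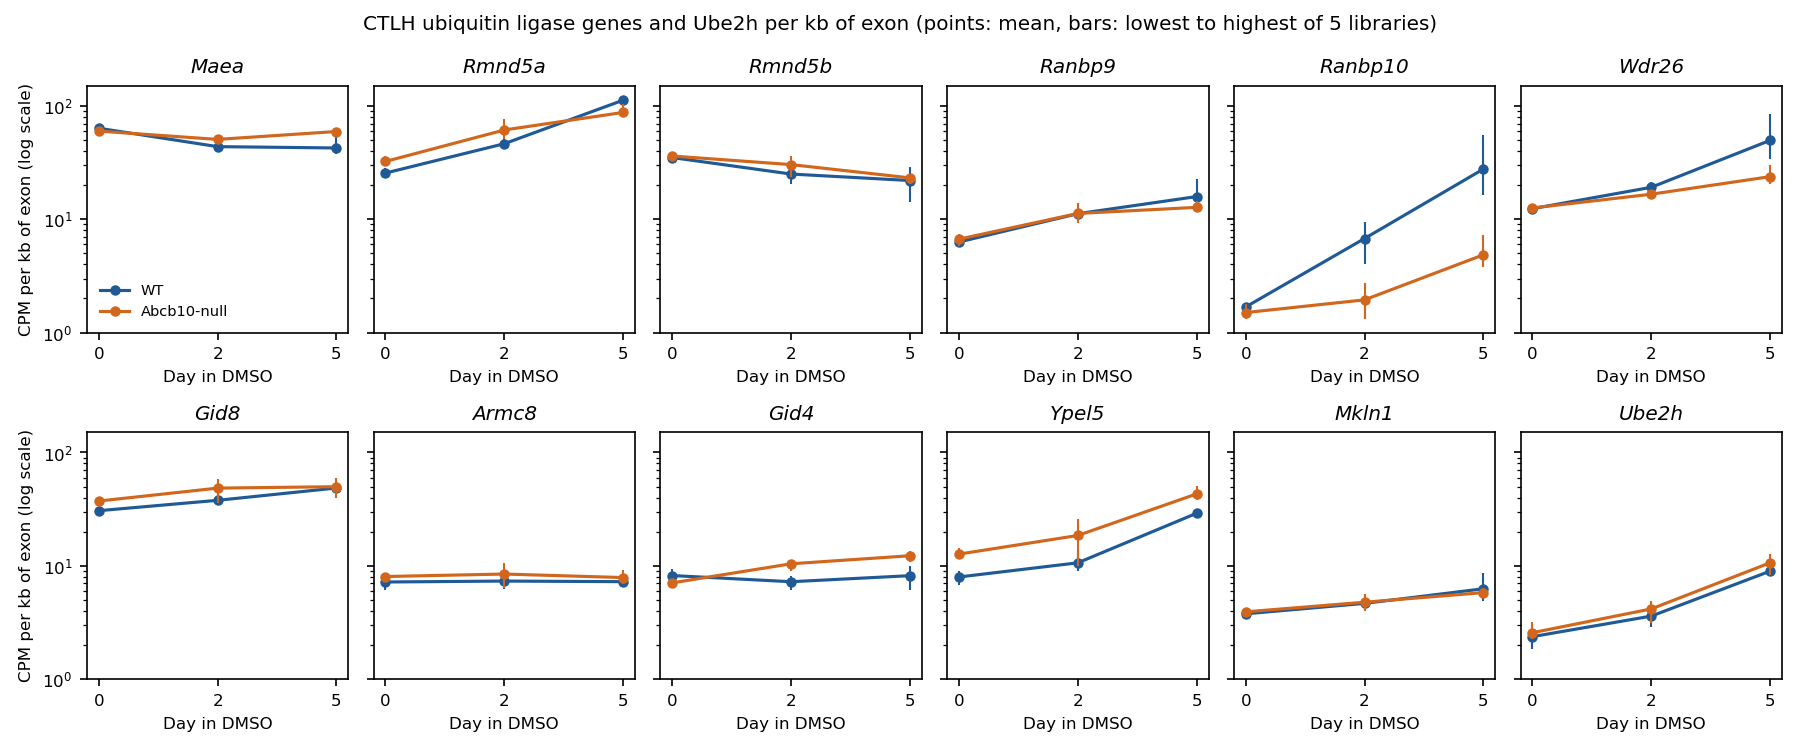
Mean level per kilobase of exon (CPM per kb, log axis) of 11 CTLH genes and *Ube2h* by day in WT (blue) and Abcb10-null (orange). Bars run from the lowest to the highest of 5 libraries. The lines of *Ranbp10* part most, at 27.7 and 4.86 CPM per kb at day 5, those of *Wdr26* part at day 5, and *Rmnd5a* stands highest at day 5 in both genotypes.

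The other members of the *Ube2h* family moved in both directions. Of the 30 other ubiquitin-conjugating enzyme genes tested, 12 were higher and 11 lower in WT at day 5 against day 0, with a median log2 fold change of 0.17. *Ube2v1*, a catalytically inactive E2 variant, rose by 1.91 (SE 0.34, adjusted p = 0.000238) and the ISG15-conjugating *Ube2l6* by 1.73 (SE 0.11, adjusted p = 1.8e-08), near the 1.92 of *Ube2h*. *Cdc34* was at -1.39 and *Ube2g2* at -0.85, both past the test. Between genotypes at day 5, 9 were higher, 2 lower and 19 not called. *Ube2w* was at 0.83 and *Ube2e1* at 0.80 among those higher, and *Ube2v1* at -1.76 and its partner *Ube2n* at -0.58 were the 2 that were lower.

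The partners of *Fbxo7* in its SCF ligase and PI31 moved in both directions. In WT at day 5 against day 0, *Skp1a*, the adaptor, was lower (log2 fold change -0.29, SE 0.10, adjusted p = 0.0231). So was the scaffold *Cul1* (log2 fold change -0.32, SE 0.077, adjusted p = 0.00196). The RING subunit *Rbx1* was at -0.18 (SE 0.094, adjusted p = 0.106) and *Psmf1*, which encodes PI31, was higher (log2 fold change 0.32, SE 0.13, adjusted p = 0.0442). Between genotypes at day 5 *Cul1* was higher in the null clone (log2 fold change 0.55, SE 0.083, adjusted p = 0.000297) and *Rbx1* was lower (log2 fold change -0.45, SE 0.12, adjusted p = 0.00855). *Skp1a* at -0.15 and *Psmf1* at 0.14 were not called. Without the libraries that stood apart the WT change of *Skp1a* was -0.18 and that of *Psmf1* 0.22, neither past the test. In that setting *Skp1a* was lower in the null clone at -0.29.

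Among the 24 other Trim family genes tested over the WT course, 12 were higher and 4 lower at day 5, and among 25 tested between genotypes at day 5, 5 were higher and 7 lower. *Trim10*, an erythroid Trim gene, came closest to *Trim58* in its difference between genotypes. At day 0 *Trim10* was at 42.95, 40.2, 41.3, 39.5 and 43.4 CPM in WT and at 27.4, 32.7, 29.1, 31.6 and 31.1 CPM in Abcb10-null. At day 2 *Trim10* was at 101, 99.1, 86.3, 93.3 and 95.1 CPM in WT and at 46.4, 54.05, 70.3, 52.7 and 71.1 CPM in Abcb10-null. At day 5 *Trim10* was at 256, 204, 210.2, 249.9 and 225 CPM in WT and at 58.98, 72.9, 62.9, 48.8 and 37.4 CPM in Abcb10-null. The genotypes did not overlap at any of the days. Unlike *Trim58* the gene rose in both, by 2.46 (SE 0.091, adjusted p = 2.21e-10) in WT and 0.90 (SE 0.14, adjusted p = 3.57e-05) in Abcb10-null. The difference between genotypes at day 5 was -2.03 (SE 0.16, adjusted p = 2.64e-06). *Trim24* rose in WT by 1.69, *Trim27* was at -1.14 and *Trim65* at -0.78, all past the test. At day 5 between genotypes *Trim35* at 1.50 and *Trim46* at 1.38 were higher and *Trim62* at -1.003 was lower, the last of which was not called without the libraries that stood apart (-0.89).

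Of the 7 cytoplasmic dynein subunits tested, the motor that Trim58 targets, 3 were higher and 1 lower in WT at day 5 against day 0. Likewise 2 were higher and 1 lower in Abcb10-null against WT at day 5. *Dync1i2*, the intermediate chain gene expressed in these cells, was higher at 0.27 (SE 0.08, adjusted p = 0.0066) in the WT course and at 0.30 (SE 0.086, adjusted p = 0.0167) between genotypes. Its relative *Dync1i1* reached 16 counts at most in any library. In WT the light intermediate chain *Dync1li2* was at 0.72, the heavy chain *Dync1h1* at 0.68 and the light chain *Dynll1* at -0.69, all past the test. Between genotypes *Dync1li1* was at 0.60 and *Dynll1* at -0.66. Without the libraries that stood apart *Dync1h1* was at 0.34 and did not pass.

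Most other genes of the nuclear transport machinery fell in WT, where *Xpo7* was not called over the whole course. Of the 26 other exportin, importin and Ran cycle genes tested, 18 were lower and 2 higher in WT at day 5 against day 0, with a median log2 fold change of -0.62 against 0.023 for all genes. *Ranbp1* at -2.78 and *Rcc1*, the exchange factor of Ran, at -2.45 were lowest, and *Kpna1* at 0.50 and *Kpna4* at 0.45 were the 2 that rose. Between genotypes at day 5, 10 of the 26 were higher in the null clone and 1 was lower, so *Xpo7* at 0.69 moved the way most called genes of the list did. *Rcc1* was at 1.35 and the tRNA exportin *Xpot* at 1.22 among those higher, and *Xpo6* at -0.93 was lower. *Ranbp17*, the closest relative of *Xpo7*, reached 25 counts at most in any library.

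Downstream of these ligases the proteasome genes fell in both genotypes. In WT at day 5 against day 0, 31 of 32 subunit genes of the 26S proteasome were lower and 0 higher, with a median log2 fold change of -1.10, led by *Psma5* at -1.62 and *Psmc5* at -1.54. In Abcb10-null 29 were lower and 2 higher, with a median of -0.97. Between genotypes at day 5, 6 were higher and 6 lower, with *Adrm1* at 0.80 and *Psmb5* at 0.72 at one end and *Psma2* at -0.59 and *Psmd3* at -0.51 at the other. Of the genes for ubiquitin and its E1 enzymes, *Uba6* rose in WT (log2 fold change 0.43, SE 0.12, adjusted p = 0.00606). *Rps27a*, which encodes ubiquitin fused to a ribosomal protein, fell (log2 fold change -0.78, SE 0.16, adjusted p = 0.000613). *Ubb* at -0.067 and *Uba1* at -0.033 were not called. Between genotypes at day 5 *Rps27a* was higher in the null clone (log2 fold change 0.51, SE 0.16, adjusted p = 0.0244). *Ubb* at 0.35, *Uba1* at 0.25 and *Uba6* at 0.054 were not called. Without the libraries that stood apart *Uba1* also passed the test, at -0.30 in the WT course and at 0.49 between genotypes.

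The erythroid markers gave the widest median changes of the lists in the WT course and between genotypes at day 5. All 11 were higher in WT at day 5, with a median log2 fold change of 2.89, led by *Slc4a1*, the anion exchanger of the red cell membrane, at 11.02 and *Alas2*, the first enzyme of heme synthesis, at 5.92. *Slc4a1* was at 0 to 0.438 CPM in WT at day 0 and at 253 to 652 CPM at day 5. The size of its rise therefore depends on very few reads at day 0. In Abcb10-null 7 of the 11 were higher, 3 lower and 1 not called at day 5 against day 0. All 11 were lower in Abcb10-null against WT at day 5, with a median of -1.38, led by *Slc4a1* at -3.13 and the transferrin receptor *Tfrc* at -3.09. Of the other-cell markers, 6 of 9 tested were higher and 0 lower in the null clone at day 0, and 2 of 6 were higher and 0 lower at day 5. Their part in the results was not tested. Among them *Itga2b* rose in WT by 1.20, *Cd68* was at -2.70 and *Pf4* at -1.94. At day 5 *Lyz2* at 2.18 and *Pf4* at 0.86 were higher in the null clone, where *Lyz2* was at 1.37 ± 0.389 CPM. The difference of *Pf4* was 0.54 and not called without the libraries that stood apart.

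**Figure D5:**
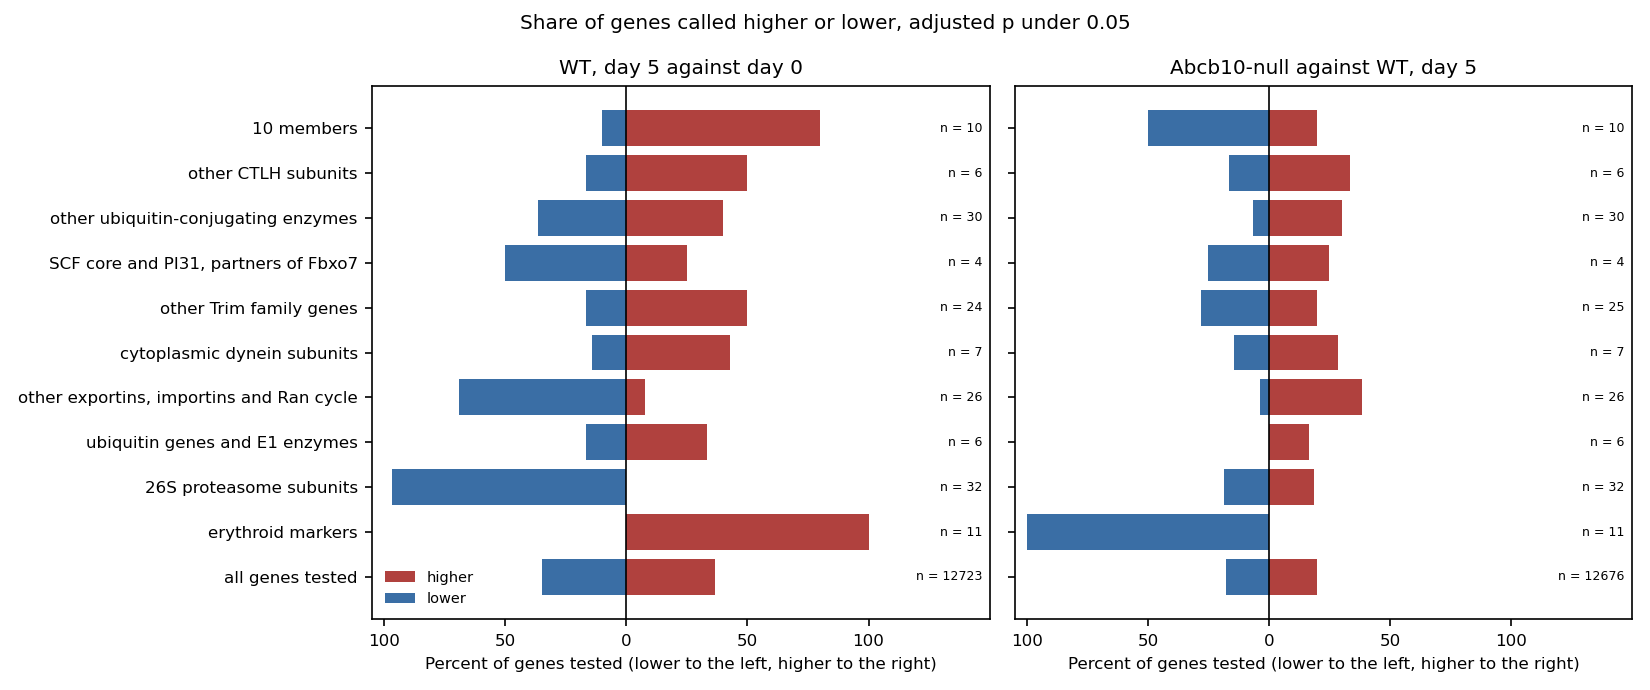
Percent of the genes tested in each list that were called higher (red, to the right) or lower (blue, to the left). The panels are WT at day 5 against day 0 (left panel) and Abcb10-null against WT at day 5 (right panel), with all genes tested in the bottom bar and n as the number of genes tested. The 10 members lean higher in WT and lower in the null clone, the proteasome list is nearly all lower in WT, and the erythroid markers lie wholly on one side in each panel.

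Across the 30 libraries the patterns of the 10 genes were set side by side, given here as a description, since the libraries share genotype and day. The highest Pearson correlations of log2 CPM were those of *Rmnd5a* with *Ranbp9* (r = 0.91), *Ube2h* with *Rmnd5a* (r = 0.90) and *Wdr26* with *Fbxo7* (r = 0.89). Those of *Wdr26* with *Ranbp9* and of *Rmnd5a* with *Fbxo7* and *Wdr26* followed, each at 0.87. *Trim58* was closest to *Ube2o* (r = 0.83). *Maea* had a negative r with each of the other genes but *Xpo7*, the lowest with *Ube2o* (r = -0.72). *Xpo7* ran against *Trim58* (r = -0.70) and *Ube2o* (r = -0.51), and its r with the others but *Maea* was -0.18 to 0.45. Among 12152 genes with a mean of at least 1 CPM, those most like *Ube2h* included *Cmas* and *Trpc1* (r = 0.95 to 0.96). They were *Rnf10*, *Mink1* and *Son* for *Ube2o* (r = 0.95 to 0.97), and *Sumo3*, *Rpn2* and *Eef1b2* for *Maea* (r = 0.90 to 0.92). *Rmnd5a* was closest to *Prkar2b*, *Ypel2* and *Klhl28* (r = 0.98 to 0.99), *Ranbp9* to *Atad2b*, *Rb1* and *Cpeb4* (r = 0.96 to 0.97). *Wdr26* was closest to *Epb41*, which encodes protein 4.1 of the red cell skeleton, *Ell2* and *Hipk1* (r = 0.97 to 0.98). *Gid8* was closest to *Phospho2*, *Pnrc2* and *Gtpbp8* (r = 0.92 to 0.93), and *Trim58* to *Mical3*, *Ccdc92* and *Map1a* (r = 0.92 to 0.96). *Fbxo7* was closest to *Cox6b2*, *Appl2* and *Fech*, the last enzyme of heme synthesis (r = 0.95 to 0.96), and *Xpo7* to *Cryzl1*, *Arl14ep* and *Anapc16* (r = 0.89 to 0.93).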

How the data were processed

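RNA of 30 MEL cell libraries was sequenced after depletion of ribosomal and globin RNA with a stranded total RNA kit. The deposited values are raw counts per gene, which the authors made from reads trimmed with cutadapt and aligned to GRCm38 with STAR 2.6.1b, and counted with featureCounts 1.6.3 per the labels. The strand and multi-mapping settings are not given in the sources used here, so reads of overlapping or near-identical genes could be split. The table held 54532 genes, and 9219 of them had no count in any library. IDs were named through the GRCm38 annotation, and 37 IDs holding 0.0116% of counts had no entry.

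Groups were taken from the sample labels. Each comparison was fitted with edgeR 4.0.16 (R 4.3.3, limma 3.58.1) by the quasi-likelihood test on the libraries of the groups compared, with TMM scaling, the filterByExpr filter and Benjamini-Hochberg adjustment over all genes passing it, and an adjusted p under 0.05 counted as called. There were 11 comparisons: Abcb10-null against WT at each of 3 days, 3 pairs of days in each genotype, and the difference between genotypes in the change from day 0 to day 2 and to day 5. The test was checked on simulated counts with the same dispersion for every gene and no library standing apart. That check does not cover genes of wide spread such as *Trim58* or the libraries that stood apart. SEs come from the log2 fold change and its F statistic, and intervals are 95%. Depth was 9906783 to 20157768 counts per library, with a median of 16492116.5, so that *Trim58* rested on 5 to 213 counts. Correlations between genes used log2(CPM + 0.5). Replicates of the same group differed by more than counting noise (lowest chi-square per degree of freedom 6.48), so no library was a copy of another of its group. Pairs of libraries from different groups were not checked in this way. Libraries with the same replicate number showed no common pairing. Over 75 such pairs the deviations from the group means correlated at -0.396 to 0.517, with a median of -0.025. In 17 pairs the correlation was over 0.1, so a pairing of some libraries is not settled.

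Alternatives were DESeq2 1.42.0, its size factors in edgeR, 2 other filters on low counts (at least 1 count in all, at least 10 in every library), a fit of all 30 libraries, a fit without globin and mitochondria-encoded genes, a replicate block, and each library left out. Leaving out the 5 libraries that stood apart was added after the data were seen. The 10 genes and the gene lists were chosen with earlier results of these data known. The text names all 10 genes, each gene of lists of up to 6 genes, from longer lists the 2 called genes with the largest increase and the 2 with the largest decrease, close relatives, and the 3 genes most correlated with each of the 10. *Lyz2*, *Cd68* and the other markers follow the same rule. Some genes that the naming rules pick are not reported here.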

Additional observations from a re-analysis of the deposited data

Results flagged for a closer look

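Among the 60 groups of 5 libraries examined for the 10 genes, 5 held a library whose gap to its nearest neighbour exceeded 0.71 of the range of the group, where chance gives about 1 in 20 groups. These were *Ube2o* at 52.9 CPM and *Trim58* at 12.2 CPM, both in WT day 5 replicate 2, *Rmnd5a* at 244 CPM and *Xpo7* at 144 CPM, both in Abcb10-null day 0 replicate 5, and *Fbxo7* at 53.2 CPM in Abcb10-null day 2 replicate 5.

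The change with day differed between genotypes by the interaction term of edgeR's quasi-likelihood test in 7 genes. From day 0 to day 2 the difference of log2 fold changes, Abcb10-null minus WT, was -1.39 for *Ube2o* and -2.07 for *Trim58*. From day 0 to day 5 it was -1.87 for *Trim58*, -1.07 for *Wdr26*, -0.69 for *Rmnd5a* and -0.40 for *Fbxo7*, and it was 0.58 for *Maea* and 0.63 for *Xpo7*.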

How the results depend on the processing

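In a fit of all 30 libraries 1 of the 10 genes was called between genotypes at day 0 in place of 2, with 1584 in place of 4642 of all genes, and 6 in place of 3 were called in Abcb10-null from day 2 to day 5. With every gene of at least 1 count kept, 4 in place of 7 were called between genotypes at day 5, and with at least 10 counts in every library, which removed *Trim58*, 1 in place of 2 in the test of genotype by day to day 2. Under the replicate block, 2 in place of 4 were called between genotypes at day 2, without *Rmnd5a* (0.34) and *Xpo7* (0.38), and the counts of the 10 genes called were as without it in the other comparisons. Leaving out 1 library gave 2 to 5 of the 10 genes and 2665 to 5357 of all genes called at day 2 (4151 with all libraries, 2665 without Abcb10-null day 2 replicate 1 and 2744 without WT day 2 replicate 2). Where the number of all genes called is not given, a changed count of the 10 cannot be told apart from a change over all genes.

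Some values that passed the test neither in the main setting nor in the alternative changed sign. With DESeq2 or its size factors *Wdr26* at day 0 was -0.0017 and -0.0019, and *Gid4* in WT from day 0 to day 5 was 0.0026 and 0.0025, and 0.020 with at least 10 counts in every library. In the fit of all 30 libraries *Fbxo7* at day 0 was 0.0033 and *Ranbp9* at day 2 was 0.0070. With every gene of at least 1 count *Gid8* in Abcb10-null from day 2 to day 5 was -0.0066 and *Armc8* in WT to day 5 was -0.035. Under the replicate block *Trim58* in WT from day 2 to day 5 was 0.020. Without the libraries that stood apart *Ranbp9* was 0.094 at day 2 and 0.054 in the test of genotype by day to day 2. In that setting *Trim58* in WT from day 2 to day 5 was 0.39, *Gid8* in Abcb10-null from day 2 to day 5 was -0.047, *Armc8* was -0.029 in WT to day 5 and 0.016 in the test of genotype by day, and *Ubb* in WT to day 5 was 0.024.

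Leaving out 1 library turned the sign of further uncalled values. Between genotypes they ran from -0.035 to 0.038 for *Wdr26* and -0.037 to 0.0097 for *Fbxo7* at day 0, -0.13 to 0.023 for *Ranbp9* at day 2, and at day 5 from -0.063 to 0.11 for *Gid8*, -0.061 to 0.18 for *Rmnd5b*, -0.22 to 0.0055 for *Mkln1* and -0.0054 to 0.090 for *Uba6*. In WT from day 2 to day 5 they ran from -0.19 to 0.25 for *Ube2o*, -0.11 to 0.024 for *Maea* and -0.52 to 0.20 for *Trim58*, and in Abcb10-null from -0.047 to 0.12 for *Gid8* and -0.18 to 0.52 for *Trim58*. Over the whole course they ran in Abcb10-null from -0.037 to 0.018 for *Maea* and -0.11 to 0.025 for *Armc8*, and in WT from -0.076 to 0.035 for *Armc8*, -0.087 to 0.071 for *Gid4* and -0.18 to 0.032 for *Uba1*. In the test of genotype by day they ran to day 2 from -0.0085 to 0.17 for *Ube2h*, -0.063 to 0.11 for *Rmnd5a* and -8.4e-05 to 0.16 for *Gid8*, and to day 5 from -0.091 to 0.027 for *Armc8* and -0.070 to 0.17 for *Rmnd5b*.

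With 1 library left out, 2185 values kept direction and side of the threshold, 63 lost and 22 gained a call, and 60 turned sign. With every gene of at least 1 count kept, the calls of *Dync1i2*, *Rps27a*, *Trim62* and *Lyz2* between genotypes at day 5 were lost, as were those of *Dync1i2*, *Psmf1* and *Trim65* in WT from day 0 to day 5. Depth limits *Trim58* most, and *Dync1i1* and *Ranbp17* were too low to test. The cause of these changes was not tested.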
